A study of Mus musculus with 16 samples.

Results

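The distal mesoderm of the mouse forelimb bud was followed from embryonic day 9.5 (E9.5), when the bud has just formed, to E12.5, when a hand plate is present. The comparison takes 4 of the 16 RNA sequencing libraries of the series, those labelled mesoderm at E9.5 (replicates 1 and 2) and mesoderm at E12.5 (replicates 1 and 2). All 16 came from B6 mouse embryos and from the distal 150 µm of the forelimb, whose ectoderm was separated from the mesoderm with forceps after 0.25% trypsin for 20 min on ice. The other libraries are mesoderm at E10.5 and E11.5 and ectoderm at the same 4 stages, 2 per group. The ectoderm and mesoderm of 1 replicate came from the same batch of embryos. RNA of replicate 1 was purified with the RNeasy Plus Mini kit and that of replicate 2 with the RNeasy Mini kit, so the replicate number was kept as a term in every main test.

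Limb bud mesoderm is the mesenchyme, which comes from the lateral plate, together with muscle precursors, vessels, blood and later nerves and macrophages that enter it. Signals from the overlying ectodermal ridge keep its distal cells dividing, while more proximal cells condense into cartilage and connective tissue. Genes of the Hox clusters and the proximal factors Meis1 and Meis2 mark position along the limb. The RNA-binding proteins Lin28a and Lin28b mark early embryonic tissue. They block maturation of the let-7 family of microRNAs, which in turn represses a set of early embryonic messages through sites in their 3′ untranslated regions.

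The libraries held 23101374 and 16778322 gene counts at E9.5 and 23210409 and 14646672 at E12.5. Levels are scaled counts (CPM, a count divided by its library's total and multiplied by 1000000), with totals scaled by the TMM method, and every log2 change is E12.5 minus E9.5 with its standard error (SE) and the Benjamini-Hochberg adjusted p of edgeR's quasi-likelihood test over all 15501 genes tested. The spread behind a p-value is pooled over the 8 groups of 2 libraries after the replicate term, and speaks only for these samples. Of the 15501 genes, 7987 passed an adjusted p of 0.05 (51.5%), 4143 of them higher at E12.5 (26.7%) and 3844 lower (24.8%). Past 2-fold means past edgeR's test against a fold of 2, at an adjusted p of 0.05, which 2032 genes reached (13.1%), 1440 higher (9.29%) and 592 lower (3.82%). The libraries of the 2 stages did not overlap in 9180 of the genes (59.2%), so lack of overlap alone is common here. A count of 3 over a group corresponds to 0.0806 CPM at E9.5 and 0.0763 CPM at E12.5, which serves as the floor where a group held no count. The intervals and floors cover counting error only. In bulk tissue, fewer cells of a type and less RNA per cell cannot be told apart. Prrx1, a general marker of limb mesenchyme, stood at 461 and 627 CPM at E9.5 and 604 and 637 CPM at E12.5, and Tbx5, which marks the forelimb, at 94.2, 148, 188 and 146 CPM in the same order. Neither gene passed the test.

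The let-7 axis held the largest fall, that of Lin28a, and matches to the let-7 seed are shown here for some of its messages. These messages were not picked by the size of their fall, and Igf2bp1 fell by less than the median of its list. Mature let-7a and miR-196a, a microRNA encoded within the Hox clusters, are printed from RefSeq (GRCm38.p6) 5′ to 3′ with the seed, bases 2 to 8, in capitals. Let-7a lies at chr13:48538239-48538260 on the minus strand, and 11 mature mouse names share its seed. Mature miR-196a lies at chr11:96265187-96265208 and at chr15:102973365-102973386, both on the plus strand.
let-7a-5p: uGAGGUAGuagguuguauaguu
miR-196a-5p: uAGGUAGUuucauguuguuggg
The sites below are single matches in the longest annotated 3′ untranslated region of each gene (GENCODE M21, GRCm38), on the sense strand, with the complement of the seed in capitals. The let-7 motif is CTACCTC, at chr4:134005189-134005211 (minus) in Lin28a, chr10:45381022-45381044 (minus) in Lin28b, chr10:120364224-120364246 (minus) in Hmga2, chr11:95961778-95961800 (minus) in Igf2bp1 and chr9:114512472-114512494 (minus) in Trim71.
Lin28a: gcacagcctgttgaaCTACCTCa
Lin28b: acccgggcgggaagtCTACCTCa
Hmga2: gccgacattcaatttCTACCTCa
Igf2bp1: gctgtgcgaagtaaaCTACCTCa
Trim71: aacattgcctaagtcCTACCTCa
The miR-196 motif is ACTACCT, which overlaps the let-7 motif wherever the letters run ACTACCTC. It lies at chr11:96301372-96301394 (plus) in Hoxb6, chr11:96289783-96289805 (plus) in Hoxb7, chr15:102992975-102992997 (plus) in Hoxc8 and chr6:52215400-52215422 (minus) in Hoxa7.
Hoxb6: ctggaaggagcacatACTACCTa
Hoxb7: actgtaaaaaaatatACTACCTa
Hoxc8: acactcacaactctaACTACCTg
Hoxa7: aggcacagccaaaatACTACCTa
The let-7 motif was present in 1491 of 13790 tested genes with a 3′ untranslated region (10.8%), in 80 of the 536 that fell past 2-fold (14.9%) and in 137 of the 1347 that rose past 2-fold (10.2%). The median region was 1214, 1209.5 and 1354 bases long in these sets. The miR-196 motif was present in 981 of all (7.1%), in 59 of those that fell and 83 of those that rose. A match is a run of letters and not a shown site of binding, and these libraries do not measure mature microRNAs.

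Lin28a and Lin28b were abundant at E9.5 and nearly gone at E12.5. Of the 15 genes tested in the list of the Lin28 axis and early embryonic messages, 12 fell, 9 of them past 2-fold, and 1 rose, with a median log2 change of −2.17 against 0.02 over all tested genes. Of these 15, 11 held a let-7 motif (73.3%), in a list chosen partly for its known let-7 targets. Among them were Nr6a1 with 8 matches and Hmga2, Igf2bp1, Lin28b and Trim71 with 4 each. The median 3′ untranslated region of the list was 2119 bases long, against 1214 over all tested genes with one. The part of length in the share with a motif was not tested. Lin28a (chr4:134003330-134018841, minus strand) stood at 368 and 457 CPM in the E9.5 libraries and at 0.0436 and 0.0610 CPM at E12.5, where each library held 1 count. The ratio of scaled counts was 8003 (95% interval 2215 to 66090), and the fitted log2 change was −12.78 (SE 0.85, adjusted p = 3.64e-07). Its mean had reached 10.02 CPM at E10.5 and 0.255 CPM at E11.5, so most of the fall in CPM lay between the first pair of stages. On the log2 scale the fall went on after E10.5. Lin28b fell more slowly, from 279 and 420 CPM through means of 62.4 and 16.1 CPM to 1.79 and 5.37 CPM (log2 change −6.71, SE 0.43, adjusted p = 3.09e-07). Both E9.5 libraries stood far above both E12.5 libraries for each gene.

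Other early messages of the list fell as well, most of them by less. Hmga2, a chromatin protein of proliferating embryonic cells, stood at 904 and 1126 CPM at E9.5 and 153 and 169 CPM at E12.5, a 6.28-fold difference (log2 change −2.65, SE 0.20, adjusted p = 7.73e-07). Trim71, an RNA-binding ubiquitin ligase, went from 138 and 283 CPM to 3.97 and 17.2 CPM (log2 change −4.43, SE 0.37). Igf2bp1, which binds and stabilises messages, went from 733 and 855 CPM to 226 and 323 CPM (log2 change −1.54, SE 0.18). The groups did not overlap for any of these genes. Nr6a1, an orphan nuclear receptor of the early embryo, fell from 99.5 and 163 CPM to 0.915 and 1.159 CPM and had already reached a mean of 3.41 CPM at E10.5 (log2 change −6.94, SE 0.40, adjusted p = 1.68e-07). The count of 12 was the same with each of the 4 libraries left out in turn and without the replicate term. Igdcc3, a receptor of the immunoglobulin superfamily that is outside the list and carries 2 let-7 matches, ran from 1288 and 1166 CPM to 1.83 and 1.95 CPM, a 648-fold fall.

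**Figure D1:**
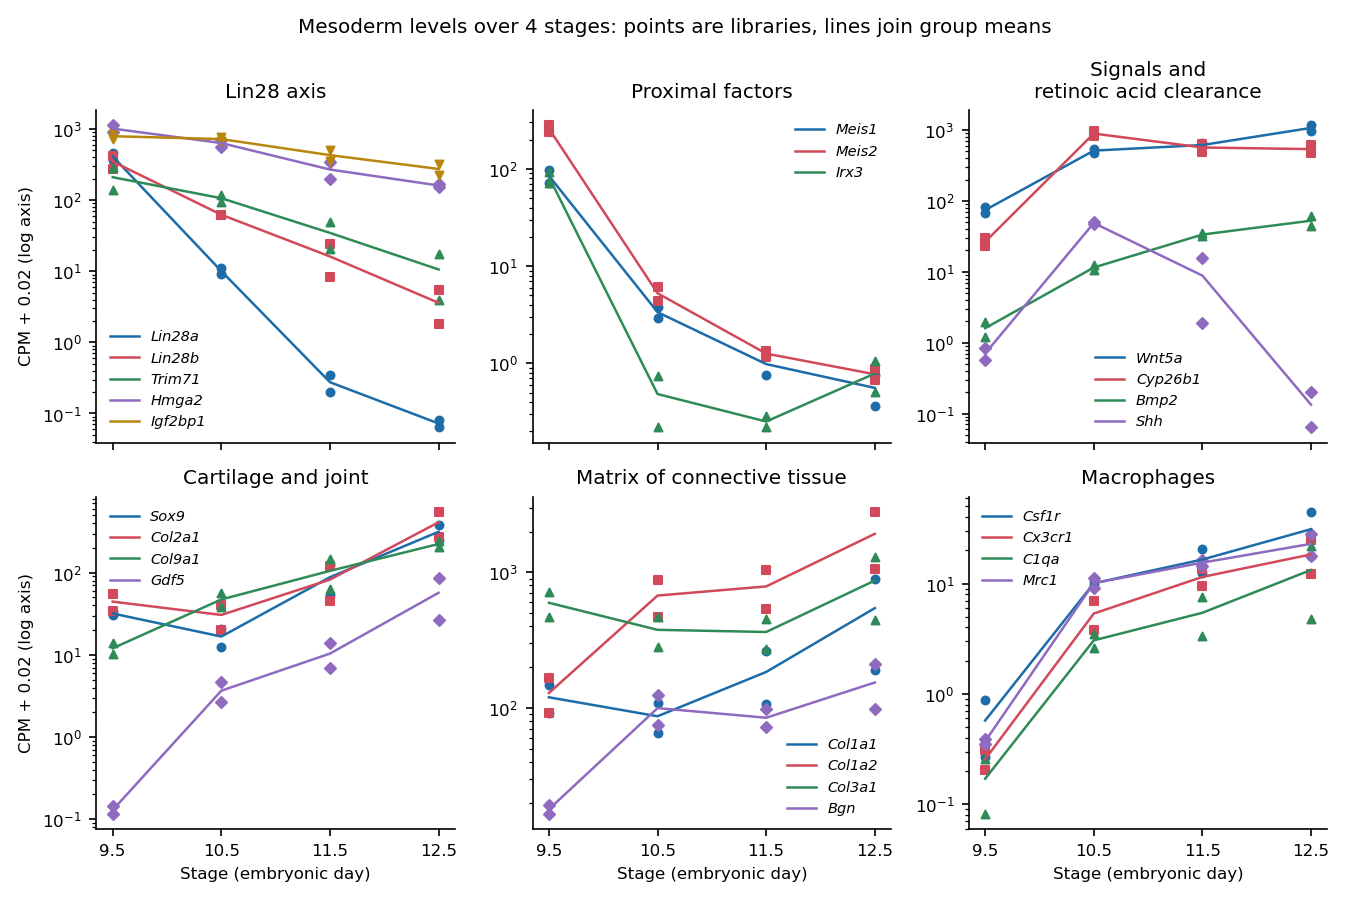
Levels in mesoderm at the 4 stages on a log axis (CPM + 0.02), 1 marker per library and a line through the group means, in 6 panels of named genes. Lin28a falls to 0.0436 and 0.0610 CPM by E12.5 while Wnt5a, Sox9 and the macrophage genes end above their E9.5 libraries.

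In all 4 Hox clusters members from the 3′ side fell, and in the HoxA and HoxD clusters the most 5′ members rose. Every one of the 9 HoxB genes tested fell past 2-fold, and their summed level went from between 293 and 335 CPM to between 5.49 and 6.01 CPM. Hoxb13, the most 5′ gene, had no count in any of the 4 libraries. Hoxb1 stood at 10.8 and 14.3 CPM at E9.5 and at 0 in both E12.5 libraries, at least 162-fold lower against the floor of 3 counts over the group. Hoxb6 ran from 42.3 and 43.9 CPM to 0.0436 and 0.122 CPM, a count ratio of 564 (interval 193 to 2738). The level was low from E10.5 on, where the mean of Hoxb6 was 0.378 CPM.

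In the HoxC cluster 5 of 9 tested genes fell, all past 2-fold, and the cluster sum went from 144 to 146 CPM at E9.5 to 0.183 to 0.654 CPM at E12.5. These are Hoxc4, Hoxc5, Hoxc6, Hoxc8 and Hoxc9. The share called, 55.6%, was near the 51.5% over all genes, while falls past 2-fold made up 3.82% of all genes. Hoxc5 stood at 65.8 and 62.6 CPM at E9.5 and had 0 and 1 count at E12.5, a count ratio of 2533 (interval 454 to 100100). Hoxc8 and Hoxc9 stood at 4.107 and 3.997 CPM and at 1.39 and 1.04 CPM at E9.5 and held no count at E12.5, at least 53.2-fold and 16.2-fold lower. The 5′ members Hoxc10, Hoxc11, Hoxc12 and Hoxc13 stood at or below 0.131 CPM in each of the 4 libraries and did not pass the test.

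In the HoxD cluster 3 genes rose and 5 fell, all past 2-fold. Hoxd13, which patterns the digits (chr2:74668310-74671599, plus strand), stood at 10.1 and 8.36 CPM at E9.5 and 607 and 1042 CPM at E12.5, an 87.9-fold rise (log2 change 6.46, SE 0.80, adjusted p = 3.09e-05). Hoxd12 went from 0.430 and 0.492 CPM to 257 and 401 CPM (log2 change 9.56, SE 1.02, adjusted p = 1.02e-05). Hoxd11 went from 6.21 and 2.71 CPM to 40.6 and 66.5 CPM (log2 change 3.73, SE 0.58). For all 3 the E12.5 libraries stood above the E9.5 libraries, and the means at E10.5 were already 573, 328 and 115 CPM. Hoxd10 stood at 92.2 and 77.7 CPM and then at 28.0 and 70.1 CPM, and did not pass (adjusted p = 0.254), but did in the mesoderm libraries alone, in the 4 libraries alone, with no filter on low counts and without ectoderm E11.5 replicate 1. Hoxd9 fell from 218 CPM in both E9.5 libraries to 9.11 and 13.97 CPM, and Hoxd1, Hoxd3, Hoxd4 and Hoxd8 fell with log2 changes from −8.10 to −4.78.

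In the HoxA cluster 2 of 11 genes rose and 8 fell. Hoxa13, the partner of Hoxd13 in the hand plate, ran from 0.573 and 0.307 CPM to 243 and 208 CPM (log2 change 8.94, SE 0.88, adjusted p = 5.78e-06), with E10.5 at a mean of 183 CPM. Hoxa10 stood at 52.7 and 46.1 CPM and then at 138 and 143 CPM (log2 change 1.51, SE 0.44, adjusted p = 0.0121), and did not pass when either E9.5 library was left out. Hoxa11, which patterns the forearm, peaked between the stages compared, with 52.5 and 32.0 CPM at E9.5, a mean of 155 CPM at E10.5, and 13.2 and 15.5 CPM at E12.5 (log2 change −1.53, SE 0.36, adjusted p = 0.00341). Its fall did not pass without E12.5 replicate 1. Among the falls past 2-fold were Hoxa7 and Hoxa9, with Hoxa7 going from 74.3 and 67.1 CPM to 5.36 and 7.26 CPM. Hoxa3 fell too (log2 change −1.24, adjusted p = 0.00242), but not past 2-fold, and not without the replicate term, where its log2 change was −1.19. Of the 37 Hox genes with a tested 3′ untranslated region, 9 held a miR-196 motif (24.3%), with 4 matches in Hoxa7 and 2 in Hoxc8.

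**Figure D2:**
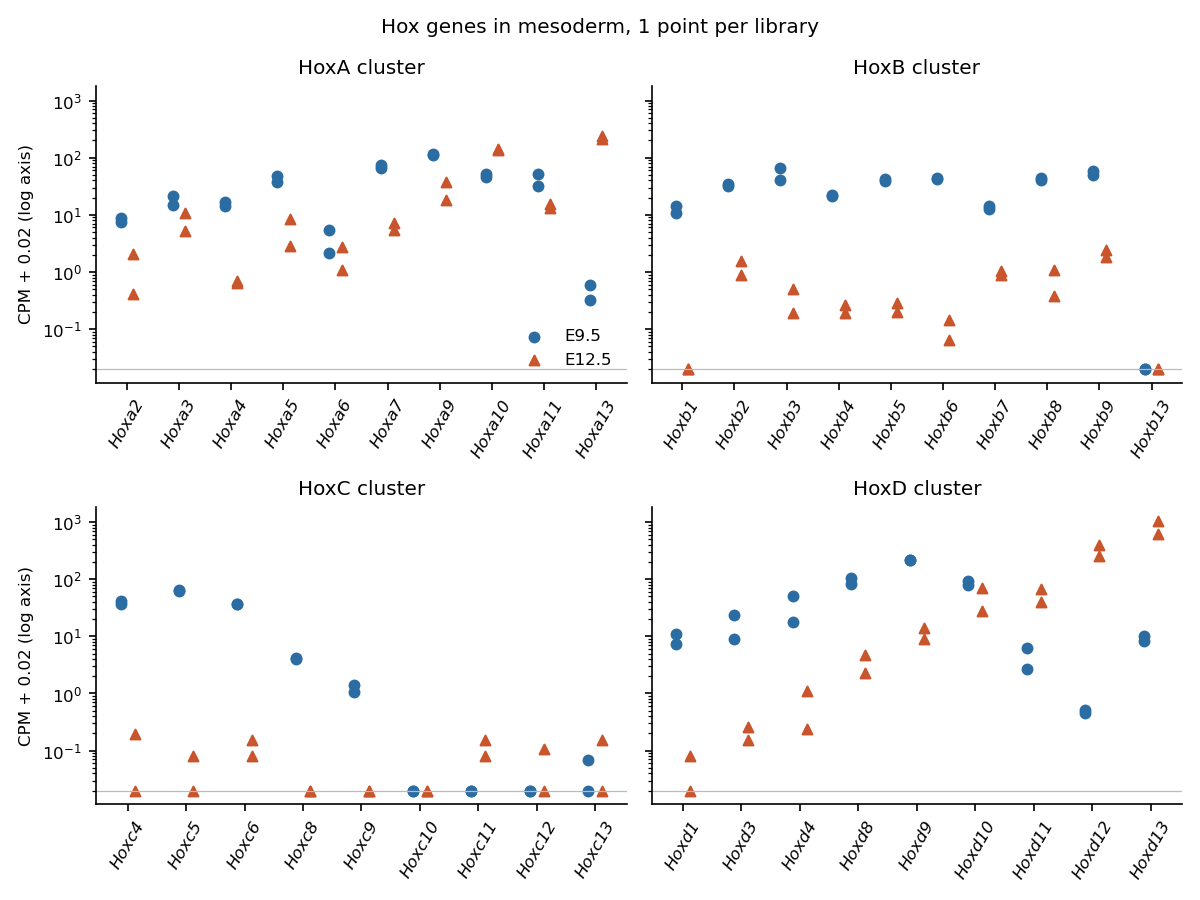
Levels of genes of the HoxA, HoxB, HoxC and HoxD clusters in the mesoderm libraries at E9.5 (circles) and E12.5 (triangles), as CPM + 0.02 on a log axis, 1 point per library. Hoxa13, Hoxd12 and Hoxd13 stand at 208 to 1042 CPM at E12.5, and every tested HoxB gene is at or below 2.38 CPM there.

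Proximal limb factors fell steeply in the distal piece sampled. The same distal length was taken at each stage, so the share of the limb bud that it covers can differ between E9.5 and E12.5. The part of the region sampled in these falls was not tested. In the list of early limb field and proximal factors 8 of 10 genes fell, all past 2-fold. Meis2 (chr2:115863064-116065839, minus strand), a homeobox partner of Hox proteins in the upper limb, stood at 239 and 279 CPM at E9.5 and at 0.654 and 0.854 CPM at E12.5, a 345-fold fall (log2 change −8.43, SE 0.22, adjusted p = 3.54e-10). Meis1 went from 71.6 and 98.0 CPM to 0.349 and 0.732 CPM, and Irx3, an early anterior and proximal factor, from 92.9 and 71.8 CPM to 1.05 and 0.488 CPM. Means at E10.5 were 5.24 CPM for Meis2, 3.34 CPM for Meis1 and 0.465 CPM for Irx3. Sall4, an early embryonic zinc finger factor, fell from 90.5 and 131 CPM to 6.80 and 22.02 CPM. Isl1, a factor of the early limb field, stood at 0.382 and 0.553 CPM at E9.5 and 0 and 0.183 CPM at E12.5 and did not pass (log2 change −2.47). It passed with no filter on low counts (−2.41), with ectoderm E11.5 replicate 1 left out (−2.48), and with E12.5 replicate 2 of mesoderm left out (−5.86), where the stage keeps only a library at 0.

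Of 26 general limb mesenchyme factors 8 rose, 6 of them past 2-fold, and 6 fell, 4 of them past 2-fold, so 53.9% were called, near the 51.5% over all genes. The number that rose was 14 with no filter on low counts and 13 when the 4 libraries were fitted alone. Msx1 and Msx2, homeobox targets of BMP signalling, rose from 243 and 216 CPM to 1315 and 594 CPM and from 38.0 and 29.6 CPM to 356 and 184 CPM. For both, E12.5 replicate 1 was the higher of its pair and both E12.5 libraries stood above E9.5. Pax9, which marks the anterior digit region, had 1 count at E9.5 and stood at 9.98 and 14.6 CPM at E12.5, a count ratio of 444 (interval 79.2 to 17550). Among the genes that fell were homeobox factors of the anterior bud, with Alx1 going from 33.4 and 36.4 CPM to 0.479 and 1.159 CPM (log2 change −5.49, SE 0.48) and Alx4 falling by 1.83 on the log2 scale.

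Other transcription factors were among the 12 largest rises with a mean of at least 5 CPM and groups that did not overlap. Tfap2b, an AP-2 family factor, stood at 0.334 and 0.123 CPM at E9.5 and 336 and 263 CPM at E12.5, with a mean of 186 CPM already at E10.5 (log2 change 10.25, SE 0.54, adjusted p = 1.02e-07). Nfix, a nuclear factor I member, rose later, from 0.287 and 0.184 CPM through 1.80 and 14.3 CPM to 170 and 54.1 CPM. Dlx6, a homeobox factor of distal appendages, had 2 counts at E9.5 and 25.3 and 27.9 CPM at E12.5, a count ratio of 491 (interval 136 to 4058). Dbx2, another homeobox gene, was at 0 in both E9.5 libraries and at 44.8 and 8.36 CPM at E12.5, at least 367-fold higher. The proton pump subunit gene Atp6v1g3 and the sodium channel gene Scn11a were also at 0 at E9.5 and at least 294-fold and 89.8-fold higher at E12.5. Pkdcc, a secreted kinase of the developing skeleton, fell from 511 and 462 CPM to 1.35 and 0.366 CPM, and reached a mean of 9.29 CPM by E10.5.

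Shh, the posterior signal, stood at 0.812 and 0.553 CPM at E9.5 and 0.0436 and 0.183 CPM at E12.5, both low, with means of 48.9 CPM at E10.5 and 8.82 CPM at E11.5 (E12.5 against E9.5, adjusted p = 0.135). Of 11 Hedgehog genes 5 rose, and 3 without the replicate term, without E9.5 replicate 1 or without E12.5 replicate 1. A fall was called for 1 gene without E9.5 replicate 1, with no filter on low counts or with the 4 libraries alone. In the main fit 45.5% of the 11 were called, near the 51.5% over all genes. Gli1, a direct Hedgehog target, went from 4.203 and 3.63 CPM to 21.4 and 17.0 CPM (log2 change 2.31, SE 0.36, adjusted p = 1.69e-04), below its mean of 65.3 CPM at E10.5. Hhip, which binds and limits the ligand, went from 0.812 and 1.04 CPM to 7.37 and 7.99 CPM. The receptor Ptch1 and the transducer Smo did not pass, with Smo at 390, 312, 427 and 298 CPM. Ptch1 passed as a rise with no filter on low counts (log2 change 0.46) and in the 4 libraries alone (0.41), and Shh as a fall in the same fits (−2.65 and −2.66).

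Of 14 FGF pathway genes 2 rose and 2 fell, beside 51.5% called over all genes. Without the replicate term 0 fell, and without E12.5 replicate 1 each count was 1. Fgf10, the mesenchymal ligand, stood at 65.7 and 102 CPM and then 107 and 86.4 CPM, with overlapping groups, and the receptor Fgfr1 stood at 265, 266, 302 and 265 CPM. The target genes Etv4 and Dusp6 did not pass, Dusp6 passing as a fall in the 4 libraries alone (log2 change −0.40). Fgfr3, a receptor of forming cartilage, rose from 2.53 and 4.98 CPM to 19.4 and 40.4 CPM (log2 change 2.97, SE 0.31, adjusted p = 9.35e-06).

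Of 22 BMP and TGF-beta genes 15 rose, 9 past 2-fold, and 3 fell. Inhba, the activin beta A subunit, had no count at E9.5 and stood at 30.9 and 28.1 CPM at E12.5, at least 368-fold higher. Bmp2 rose from 1.19 and 1.97 CPM to 61.1 and 44.3 CPM (log2 change 5.08, SE 0.33, adjusted p = 3.46e-07). Gdf5, the joint ligand (chr2:155941023-155945367, minus strand), rose from 0.0955 and 0.123 CPM to 87.1 and 26.9 CPM (log2 change 8.89, SE 0.66, adjusted p = 7.59e-07). E12.5 replicate 1 was the higher of the pair by far for Gdf5, and both E12.5 libraries stood well above E9.5. Bmp4 stood at 70.2 and 67.1 CPM and then 60.2 and 58.1 CPM and did not pass. The antagonist Grem1, which links posterior and ridge signals, went from 26.4 and 32.0 CPM to 2.18 and 5.61 CPM (log2 change −3.03, SE 0.68), while the antagonist Nog rose from 0.907 and 0.922 CPM to 9.94 and 4.09 CPM.

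Of 22 WNT genes 6 rose and 6 fell, so 54.5% were called, near the 51.5% over all genes. Wnt5a, which drives outgrowth of distal mesenchyme (chr14:28504750-28527448, plus strand), rose from 67.2 and 81.7 CPM to 1166 and 985 CPM, 14.5-fold (log2 change 3.86, SE 0.16, adjusted p = 2.33e-08). The mean had reached 514 CPM by E10.5. Wif1, a secreted inhibitor, went from 19.8 and 17.4 CPM to 351 and 104.9 CPM (log2 change 3.39, SE 0.44). Rspo2, which strengthens WNT signals, went from 39.4 and 39.5 CPM to 0.741 and 0.488 CPM (log2 change −5.95, SE 0.45). The inhibitors Sfrp1 and Frzb and the factor Tcf7 fell as well, by 2.198, 2.36 and 2.12 on the log2 scale. Axin2, a general target of the pathway, did not pass, at 80.3, 150, 161 and 158 CPM, but passed as a rise with no filter on low counts, in the 4 libraries alone, and without E12.5 replicate 2 (log2 change 0.78) or E9.5 replicate 2 (0.83), against 0.53 in the main fit.

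Of 15 retinoic acid genes 8 rose and 4 fell. Cyp26b1, which breaks down retinoic acid in the distal limb, stood at 29.7 and 23.3 CPM at E9.5 and 610 and 469 CPM at E12.5, a 20.3-fold rise (log2 change 4.34, SE 0.22, adjusted p = 8.25e-08), and was highest at E10.5 with a mean of 894 CPM. Rarb, a receptor that is itself a target of the acid, fell from 70.0 and 60.9 CPM to 8.50 and 2.44 CPM (log2 change −3.62, SE 0.36), through a mean of 0.412 CPM at E10.5. Crabp1, a binding protein, fell from 444 and 348 CPM to 68.1 and 34.95 CPM. The synthesis enzyme Aldh1a2 stood at 35.4 and 24.8 CPM and then 264 and 46.5 CPM. Its call (log2 change 2.10, adjusted p = 0.00725) was lost without E12.5 replicate 1, where the change was 0.81, without E9.5 replicate 1, and with DESeq2. Aldh1a3 and Cyp26a1, both below 1 CPM in all 4 libraries, lost their calls without E9.5 replicate 1 and without E12.5 replicate 1 respectively.

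Skeletal and connective tissue genes rose together. Of 22 cartilage and joint genes 18 rose, 14 past 2-fold, and 2 fell, with a median log2 change of 2.89 against 0.02 over all tested genes, and the number that rose was 16 to 18 with single libraries left out. Their summed level went from 452 to 462 CPM at E9.5 to 1547 to 2161 CPM at E12.5. Sox9, the master factor of cartilage, rose from 33.4 and 30.4 CPM to 378 and 253 CPM, 9.75-fold (log2 change 3.29, SE 0.33, adjusted p = 6.37e-06), after a mean of 16.7 CPM at E10.5. Cartilage collagens rose too, with Col2a1 at 54.9 and 34.1 CPM and then 550 and 273 CPM, and Col9a1 at 13.8 and 10.3 CPM and then 242 and 206 CPM. Col9a2 and Col9a3 rose by 6.99 and 6.91 on the log2 scale from below 0.7 CPM. The mature cartilage genes of the list were still scarce: Acan stood at 1.52 and 0.976 CPM at E12.5 and Matn1 had no count there. Runx2, an early bone factor, rose from 1.29 and 2.83 CPM to 23.9 and 23.5 CPM. Hapln1, a link protein of the matrix, fell from 66.9 and 62.7 CPM to 5.93 and 7.14 CPM.

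Of 21 tendon and connective tissue genes 15 rose, 11 past 2-fold, and 1 fell. Scx, the tendon progenitor factor, rose from 1.81 and 1.17 CPM to 7.19 and 4.51 CPM (log2 change 1.97, SE 0.29, adjusted p = 1.22e-04). Col1a2 rose from 165 and 92.4 CPM to 2791 and 1059 CPM (log2 change 3.83, SE 0.32). Col1a1 rose from 148 and 91.4 CPM to 898 and 191 CPM (log2 change 1.91, SE 0.29), a call lost without the replicate term. Col3a1 did not pass, at 722, 471, 1298 and 442 CPM with overlapping groups. In these collagens E12.5 replicate 1 stood far above E12.5 replicate 2, and with E12.5 replicate 1 left out 11 list members rose in place of 15, with the replicate term dropped 10. Col14a1 fell from 51.3 and 42.1 CPM to 2.35 and 0.732 CPM. Of 12 matrix proteases and inhibitors 7 rose, among them Mmp11, Mmp14 and Adamts5, the last from 2.34 and 2.95 CPM to 44.6 and 47.0 CPM (log2 change 4.12, SE 0.43). Of the 2 that fell, 0 passed without the replicate term and 1 without E12.5 replicate 1 or E9.5 replicate 1.

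Guidance molecules, many of which set boundaries within the bud as well as the paths of nerves and vessels, also changed: 18 of 28 rose, 10 past 2-fold, and 5 fell. The number that fell was 3 without E9.5 replicate 2. Robo2, a Slit receptor, rose from 8.60 and 9.29 CPM to 276 and 273 CPM (log2 change 4.96, SE 0.40, adjusted p = 1.23e-06), and the ligand Slit3 from 23.1 and 21.1 CPM to 118 and 107 CPM. Epha4 and Nrp2 rose by 2.272 and 2.275 on the log2 scale and were highest at E10.5, with means of 436 and 870 CPM. The opposite was seen for the repellent Sema3a, from 217 and 326 CPM to 35.6 and 28.2 CPM, and for Efnb2, which fell by 2.03 on the log2 scale while its family member Efnb1 rose by 2.08. Sema3d rose from 2.25 and 1.11 CPM to 18.04 and 22.9 CPM, and Epha5 by 3.10 on the log2 scale from below 1 CPM. Epha3 did not pass in the main fit (log2 change −0.64, adjusted p = 0.0521) but passed as a fall in 6 alternatives, from −0.58 with no filter on low counts to −1.01 without E12.5 replicate 2.

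**Figure D3:**
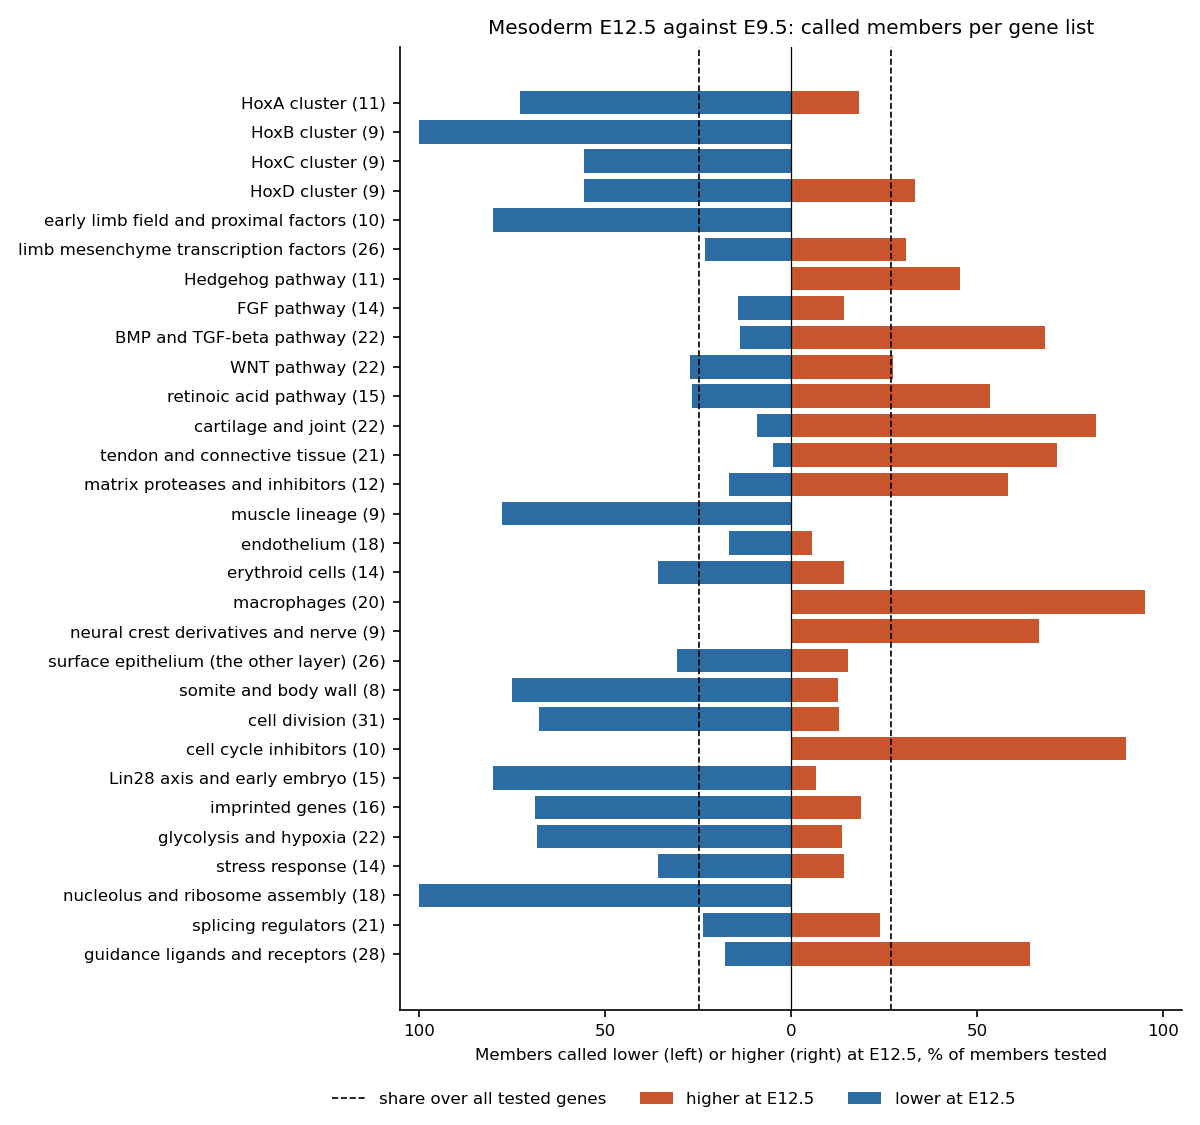
Share of tested members of each gene list called higher (right) or lower (left) at E12.5 in mesoderm, in percent, with the number tested in brackets. Dashed lines give the share over all tested genes, 26.7% higher and 24.8% lower, and the bars of macrophages, cell cycle inhibitors and cartilage reach furthest to the right.

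Markers of other cell types moved as well. Macrophage genes were near 0 at E9.5 and present at E12.5, with 19 of 20 rising, all past 2-fold, and 17 to 19 with single libraries left out. Their summed level went from between 9.72 and 14.6 CPM to between 118 and 279 CPM. Csf1r, the receptor for their growth factor, stood at 0.860 and 0.246 CPM and then at 44.5 and 17.6 CPM (log2 change 5.75, SE 0.60, adjusted p = 8.91e-06). Cx3cr1 went from 0.287 and 0.184 CPM to 24.6 and 12.1 CPM, and C1qa from 0.239 and 0.0615 CPM to 21.8 and 4.76 CPM. Mpeg1 and Aif1 had no count at E9.5 and were at least 207-fold and 21.4-fold higher. E12.5 replicate 1 was the higher of the pair for all but 2 of the 20, Ptprc and Pf4.

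Muscle precursor genes went the other way, with 7 of 9 tested falling, 6 past 2-fold, and a summed level of 81.1 to 141 CPM at E9.5 against 9.68 to 13.2 CPM at E12.5. Lbx1, which marks precursors migrating into the limb, stood at 30.9 and 12.7 CPM and was at 0 in both E12.5 libraries, at least 300-fold lower. Pax3 fell from 18.4 and 11.4 CPM to 0.305 and 0.488 CPM and the filament gene Des from 28.4 and 18.4 CPM to 0.174 and 0.183 CPM. The markers of committed muscle were at or near 0 at both stages, with Myod1 and Myog at no more than 1 count in any library.

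Somite and body wall markers were present at E9.5: Meox1 at 21.5 and 14.02 CPM, Gata6 at 17.4 and 13.0 CPM, Wt1 at 5.92 and 3.26 CPM, and, outside the list, Upk3b at 14.1 and 6.03 CPM and Gata5 at 10.8 and 10.2 CPM. Of 8 tested, 6 fell past 2-fold, Wt1 by a count ratio of 187 (interval 33.2 to 7435). Tbx18, which distal mesenchyme also expresses, rose from 31.0 and 40.3 CPM to 100 and 109 CPM and carried most of the list's sum at E12.5, which was 82.2 to 96.4 CPM at E9.5 and 106 to 112 CPM at E12.5, though its call was lost without E9.5 replicate 1. These markers fell beside Meis1, Meis2, Irx3 and the 3′ Hox genes, and their part in those falls was not tested. Nor was it tested whether the falls of the 3′ Hox and muscle precursor genes reflect the region sampled at each stage.

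Vessel markers were of the same order at both stages. Of 18 endothelial genes 14 did not pass, and the list summed to 762 to 997 CPM at E9.5 and 746 to 1008 CPM at E12.5. Pecam1 stood at 64.5, 45.3, 80.2 and 62.3 CPM, with overlapping groups, and passed as a rise in the mesoderm libraries alone and in the 4 libraries alone (log2 change 0.39 and 0.40). The 3 that fell, Kdr, Flt1 and Cldn5, were between −0.96 and −0.69 on the log2 scale, and 1 of the 18 fell without the replicate term, with DESeq2, or without E12.5 replicate 1 or either E9.5 library. The 1 that rose was Aplnr, and the number that rose was 2 with DESeq2 and 0 in the others of these fits. When the mesoderm libraries were fitted alone, 5 rose and 5 fell. Of 14 red cell genes 2 rose and 5 fell, 4 past 2-fold, and 3 fell without the replicate term. In the mesoderm libraries alone and in the 4 libraries alone, 4 rose and 8 fell, and 8 fell with no filter on low counts. The 2 that rose in the main fit are adult globins. Hbb-bh1, an embryonic beta-like globin, fell from 1072 and 643 CPM to 55.0 and 101 CPM (log2 change −3.60, SE 0.65, adjusted p = 5.22e-04). Hbb-bs and Hbb-bt, whose near-identical sequences can share reads, rose by 4.29 and 5.45. Hbb-bs went from 6.11 and 3.08 CPM to 153 and 40.6 CPM. Hbb-y, another embryonic globin, did not pass, at 1216, 895, 1929 and 1451 CPM, but passed as a rise in the mesoderm libraries alone (log2 change 0.69) and in the 4 libraries alone (0.69). Of 9 neural crest and nerve genes 6 rose, 4 past 2-fold, among them Sox10, from 1 count to 2.22 and 0.854 CPM, and Dct, a gene of pigment cell precursors, from 3 counts to 2.22 and 2.07 CPM.

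Markers of the ectoderm, the layer removed, summed to 53.4 to 67.3 CPM over 26 genes at E9.5 and 21.1 to 40.3 CPM at E12.5, and none was at 0 in both libraries of a stage. Of these, 8 fell and 4 rose, and the rises numbered 1 without E12.5 replicate 1 or E9.5 replicate 1 and 2 without E9.5 replicate 2 or the replicate term. In the main fit 46.2% of the 26 were called, near the 51.5% over all genes. Epcam stood at 1.39, 1.54, 3.92 and 1.77 CPM, Cdh1 at 1.96, 1.84, 1.26 and 0.305 CPM, and Krt18 fell from 11.2 and 9.04 CPM to 1.52 and 1.04 CPM. The part of these markers in other results was not tested.

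Genes of growth and metabolism fell by modest amounts. All 18 genes of the nucleolus and ribosome assembly fell, 4 past 2-fold, with a median log2 change of −1.23, and all 18 fell with each library left out and without the replicate term. Ncl, nucleolin, went from 2576 and 3544 CPM to 974 and 1240 CPM (log2 change −1.46, SE 0.15, adjusted p = 8.85e-06), and Npm1, nucleophosmin, from 3783 and 3336 CPM to 1188 and 1257 CPM (log2 change −1.54, SE 0.11, adjusted p = 5.27e-07). Of 22 glycolysis and hypoxia genes 15 fell, 8 past 2-fold, and 3 rose, of which 1 rose without the replicate term. Ldha, which makes lactate, went from 4489 and 2828 CPM to 1148 and 833 CPM (log2 change −1.86, SE 0.12), and Eno1 and Pgk1 fell by 1.65 and 1.81 on the log2 scale. Ddit4, a growth brake induced by stress, rose from 33.0 and 17.3 CPM to 104.5 and 105.4 CPM.

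Cell division genes changed by small amounts. Of 31, 21 fell and 4 rose, with 1 fall past 2-fold, a median log2 change of −0.37 against 0.02 over all genes, and without the replicate term 5 fell and 2 rose. Ccne1, the cyclin of entry into DNA synthesis, was the exception in size, from 225 and 201 CPM to 57.2 and 51.9 CPM (log2 change −1.97, SE 0.12, adjusted p = 2.87e-07). Pcna went from 323 and 250 CPM to 199 and 186 CPM, while Top2a rose from 837 and 898 CPM to 1188 and 1140 CPM and Ccnd2 from 410 and 574 CPM to 1060 and 1131 CPM. Of 10 cell cycle inhibitors 9 rose, 5 past 2-fold. Cdkn1c, an imprinted inhibitor, rose from 156 and 95.5 CPM to 511 and 338 CPM (log2 change 1.77, SE 0.19, adjusted p = 1.03e-05), and Cdkn2c from 0.573 and 0.184 CPM to 9.94 and 6.34 CPM.

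Imprinted genes, a group that includes many drivers of fetal growth, mostly fell: 11 of 16 fell, 7 past 2-fold, and 3 rose, with 7 falling without the replicate term. Mest went from 4316 and 4151 CPM to 973 and 915 CPM (log2 change −2.17, SE 0.12, adjusted p = 1.68e-07). Peg10 went from 1306 and 2453 CPM to 96.6 and 208 CPM, and Dlk1 from 490 and 319 CPM to 3.66 and 5.98 CPM, an 83.7-fold fall. Igf2, the fetal growth factor, went from 366 and 224 CPM to 186 and 94.1 CPM (log2 change −1.11), a call lost without the replicate term. Of 14 stress genes, which respond to handling of tissue, 5 fell and 2 rose. Without the replicate term 1 fell and 1 rose, and 2 fell without E12.5 replicate 1 or E9.5 replicate 2. Hsp90aa1 fell from 1787 and 1555 CPM to 581 and 565 CPM, and Fos stood at 1.10, 0.738, 1.70 and 0.915 CPM.

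The ectoderm of the same embryos served to ask which of these changes differed between the layers. The test of the difference, the mesoderm change minus the ectoderm change, called 3588 of 15501 genes (23.1%), 1909 with a higher change in mesoderm (12.3%) and 1679 with a lower one (10.8%). Of the genes called in mesoderm, 2803 were also called here (18.1% of those tested). All 18 nucleolar genes fell by more in mesoderm than in ectoderm, with medians of −1.23 and −0.35, and the difference was −0.88 for Ncl (adjusted p = 0.0105) and −0.77 for Npm1 (adjusted p = 0.00319). Without the replicate term 4 of the 18 passed, and neither Ncl nor Npm1 did. Ncl also failed to pass without ectoderm E12.5 replicate 1, mesoderm E12.5 replicate 1 or mesoderm E9.5 replicate 2. Of 22 cartilage genes 14 had a higher change in mesoderm, with a difference in log2 change of 4.66 for Sox9 and 4.53 for Col2a1, and 9 passed without the replicate term.

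Of the early limb field genes 7 of 10 had a lower change in mesoderm. Meis2 fell by 8.43 in mesoderm and by 0.58 in ectoderm on the log2 scale, a difference of −7.85 (adjusted p = 7.01e-09). Tbx5 was the 1 with a higher change, and its call was lost without the replicate term or without any of 5 single libraries. Wnt5a changed by 3.86 in mesoderm and 0.03 in ectoderm, a difference of 3.83 (adjusted p = 3.82e-07). Cyp26b1 had a difference of 7.80 (adjusted p = 3.03e-08). The 5 HoxC genes that fell in mesoderm all differed from ectoderm, by −5.70 to −7.91. The call of Hoxc8 was lost without any of 6 single libraries. The 9 HoxD genes had edgeR adjusted p-values from 0.308 to 0.928. Their fitted differences ran from −2.62 for Hoxd1 to 4.38 for Hoxd12. Ectoderm held 0 and 0.132 CPM of Hoxd1 at E12.5, and 0.422 and 0.0603 CPM of Hoxd12 at E9.5. At such levels the lack of a call does not show an equal change in both layers. With DESeq2 all 9 HoxC genes had a lower change in mesoderm and 1 HoxD gene a higher one. A higher change was also called for 1 HoxD gene with no filter on low counts and for 2 without ectoderm E11.5 replicate 1. Of 28 guidance genes 13 had a higher change in mesoderm and 5 a lower one, against 6 and 3 without the replicate term, with Slit3 at 5.003 and Sema3a at −3.32. For the 20 macrophage genes the difference between layers had edgeR adjusted p-values from 0.0536 up, and 6 passed with DESeq2, 7 with no filter on low counts and 5 without ectoderm E11.5 replicate 1.

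**Figure D4:**
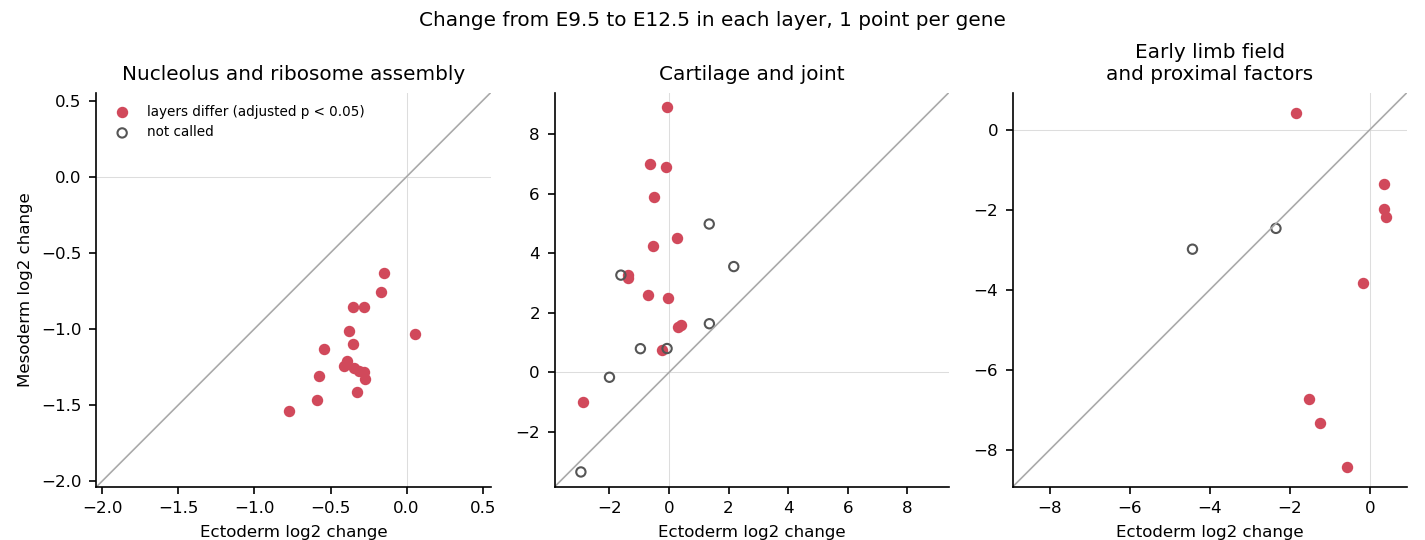
Log2 change from E9.5 to E12.5 in mesoderm (vertical) against that in ectoderm (horizontal) for genes of 3 lists, 1 point per gene, with a line of equal change. Filled points passed the test of the difference, and the 18 nucleolar genes all lie below the line while Meis2 lies furthest below it among the proximal factors.

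Use of exon bins changed for few genes. A bin is a stretch of exon between annotated boundaries, and its use is its percentage of all bin counts of the gene in a library. Of 12203 genes tested, 113 were called at an adjusted p of 0.05 (0.926%), and of 156025 bins 178 (0.114%), 97 of them with higher use at E12.5 (0.0622%). Without the replicate term 4 genes were called, Numa1, Rnf220, Thsd4 and Wwp2, and with single libraries left out 25 to 55, so these calls depend on the replicate term and on each library. By place, 81 of 15395 untranslated bins were called (0.526%), 34 of 20680 partly coding ones (0.164%) and 47 of 108453 coding ones (0.0433%). Of the bins that end a gene at its 3′ side 31 of 7983 were called (0.388%), 29 with higher use at E12.5. Use in such bins of Emc8, Zfp668 and Ephb2 was also higher in replicate 2 than in replicate 1 at both stages. Emc8 bin 1 took 14.6% and 26.1% at E9.5 and 28.2% and 35.9% at E12.5. Ephb2 bin 1 took 5.49% and 9.20% and then 13.4% and 17.2%. The part of RNA preparation or read coverage in these changes was not tested. Of 16226 coding bins of at most 60 bases 9 were called (0.0555%), near the 0.0433% of all coding bins. These 9, in 7 genes, had higher use at E12.5. The filter keeps a bin that is high in any group, so a bin scarce at a stage can pass through another. Whether short bins favour a direction was not tested. Of 21 splicing regulators 5 rose and 5 fell in level, and 2 fell without the replicate term or without E12.5 replicate 1, E12.5 replicate 2 or E9.5 replicate 2. In the main fit 47.6% of these regulators were called for level, near the 51.5% over all genes. Rbfox3, a neuronal splicing factor, rose most, from 0.955 and 0.676 CPM to 8.80 and 20.4 CPM. Of 26 genes with well-known alternative exons, such as Fn1, Fgfr2 and Cd44, 0 were called, 1 had an unadjusted p under 0.05, and the lowest adjusted p was 0.222, for Tpm1.

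The short coding exons below are shown because their genes stayed called with any 1 library left out, and they were chosen after their values were seen. Those calls are for each gene over all its bins and do not speak for the printed exon by itself. They were read from GENCODE M21 transcripts (GRCm38), on the strand of the gene, 5′ to 3′. They lie at chr7:102002295-102002336 (plus) in Numa1, a mitotic spindle protein, chr12:113133541-113133576 (plus) in Mta1, a subunit of the NuRD complex, chr12:3873382-3873428 (plus, part of an exon) in Dnmt3a, a DNA methyltransferase, and chr4:117299545-117299590 (minus) in Rnf220, a ubiquitin ligase.
Numa1 bin 24: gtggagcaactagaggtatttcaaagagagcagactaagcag
Mta1 bin 21: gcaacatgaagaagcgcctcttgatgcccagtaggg
Dnmt3a bin 15: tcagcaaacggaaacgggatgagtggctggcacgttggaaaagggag
Rnf220 bin 20: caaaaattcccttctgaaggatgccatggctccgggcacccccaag
The 42-base bin of Numa1 took 0.0467% and 0.109% of the gene's bin counts at E9.5 and 0.881% and 0.693% at E12.5 (edgeR adjusted p of the gene 1.95e-12). The 36-base bin of Mta1 took 0.466% and 0.634% and then 1.96% and 1.44% (edgeR adjusted p of the gene 2.08e-09). Both E12.5 libraries stood above both E9.5 libraries in each, from counts of 4 and 9 against 181 and 94 in Numa1. The 47-base bin of Dnmt3a took 0.111% and 0.0785% and then 0.423% and 0.488%. The edgeR adjusted p was 0.00243 for this bin and 6.53e-07 for the gene over all its bins. In Rnf220 the 46-base bin took 0% and 0.0689% and then 1.55% and 0.993%. Bin 23 of the gene, partly coding and 742 bases long, took 0.385% and 0.482% and then 8.19% and 5.93% (edgeR adjusted p of the gene 6.83e-26). Rnf220 itself rose by 0.40 on the log2 scale, while the use of these bins rose by far more. Lower use was seen in a coding bin of Thsd4, from 7.90% and 5.51% to 0.0985% and 0.270%, and in one of Phc2, a Polycomb protein, from 2.19% and 3.18% to 0.435% and 0.587%. A filter of at least 10 counts in each of the 4 libraries drops the printed bins of Numa1, Dnmt3a and Rnf220 and the bin of Thsd4, whose counts were 41, 22, 8 and 9. Under it Numa1 and Thsd4 were not called (adjusted p = 1.0), while Mta1, Dnmt3a, Rnf220 and Phc2 were.

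The 8 largest differences in use were in other genes. Bin 34 of Camta1, a coding exon of 119 bases at chr4:151830418-151830536, took 23.2% and 23.3% at E9.5 and 8.92% and 6.69% at E12.5 (edgeR adjusted p of the gene 2.06e-04). The counts of this bin were 88, 71, 91 and 56, while the gene's level rose by 1.58 on the log2 scale. Use rose in Ccnc bin 16, from 8.83% and 17.9% to 28.4% and 29.1%, and in Dnmbp bin 20, from 13.5% in both libraries to 25.8% and 25.1%. The groups did not overlap in these 3. Ankrd24, Dph3, Emc8 and Zfp668 rose by 10.7 to 13.3 percentage points and Hcfc1r1 fell by 10.3. In Zfp668 the groups nearly met, with 14.27% in E9.5 replicate 2 and 14.31% in E12.5 replicate 1. Each of these 8 genes lost its call without at least 1 of the 4 libraries, and none of the 8 was called without the replicate term, while all but Ankrd24 were called under the filter of 10 counts.

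**Figure D5:**
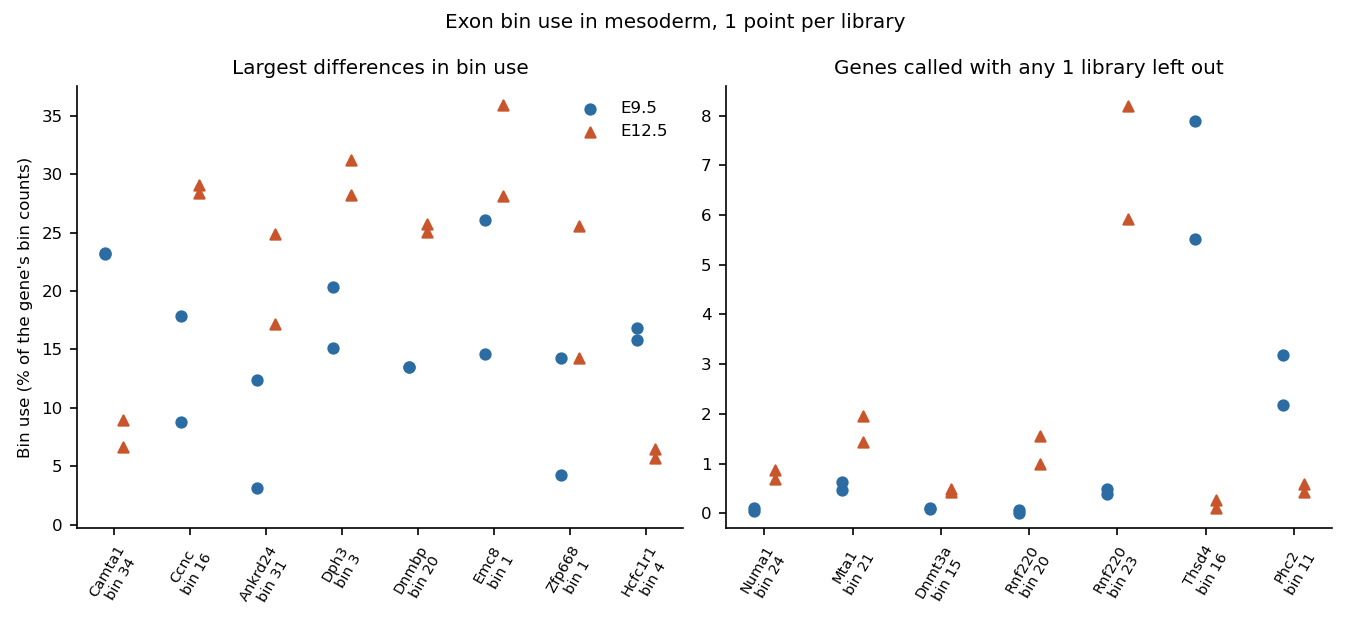
Use of named exon bins, as a percentage of the gene's bin counts, in mesoderm at E9.5 (circles) and E12.5 (triangles), 1 point per library. The left panel holds the 8 largest differences. The right panel holds 7 bins of 6 genes, each gene called over all its bins with each library left out in turn. The Numa1 bin stands there at 0.693% and 0.881% at E12.5.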

How the data were processed

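RNA was sequenced from 16 libraries, of which the mesoderm at E9.5 and E12.5 (2 libraries each) is described, grouped by tissue and stage as labelled. Per the submitters' processing notes, the tools used on mm10 were bedtools 2.27.1, STAR 2.6.0c, Cufflinks 2.2.1 and cutadapt 1.16. The counting tool and its strand setting are not given in the sources used here, so reads of overlapping or antisense genes cannot be told apart. The deposited gene values are raw counts, and the deposited exon bin values are raw counts per bin. Genes were tested with edgeR 4.0.16 in R 4.3.3 (TMM, filterByExpr by group, quasi-likelihood), fitted to all 16 libraries with 8 group means and a replicate term. Exon bins were tested with diffSpliceDGE and the Simes method. The replicate number marks the RNA kit and, between layers, the batch of embryos. The replicate term is shared by all 8 groups. It therefore does not pair the ectoderm and mesoderm that came from the same batch at a given stage. Between pairs of mesoderm stages, the differences of replicate 2 minus replicate 1 correlated at 0.529 to 0.568 over 15501 genes. Ectoderm was not part of this check. Intervals are exact and at 95%. Bins were placed by rebuilding them from GENCODE M21, which matched 51401 of 53357 genes (96.3%). On simulated data the gene test recovered 79% of 2-fold and 98% of 4-fold changes, and the bin test 19% and 95%. The changes were planted only in well-counted genes and bins, 100 per fold in each test. These rates do not cover genes or bins with few counts at a stage. Simulated mesoderm E12.5 was set to the mean of E9.5, so it carried no replicate effect. Nothing but the planted changes differed between these stages. The real libraries differ in both respects, so the rates may not hold for them.

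The members and gene lists were chosen with earlier results of these data known. Named are the 12 largest rises and falls at 5 CPM or more with groups apart, the first member and 3 largest called changes of each list, Hox genes, the 8 largest bin changes with 100 bin counts per library, and the 6 largest layer differences per direction. Other named genes were chosen for their role or with their values known. Alternatives were DESeq2 1.42.0, RLE scaling, no filter, fewer libraries, no replicate term, a fold threshold of 2, at least 10 counts per bin, and single libraries left out. Some genes that this rule picks are not reported here.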

Additional observations from a re-analysis of the deposited data

Results flagged for a closer look

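The largest differences between the layers are given here, as the mesoderm log2 change minus the ectoderm log2 change with the adjusted p of edgeR's test of that difference. In 6 genes the mesoderm change was the higher one. Gdf5, the joint ligand, differed by 8.95 (SE 1.14, adjusted p = 2.01e-04), rising in mesoderm while ectoderm stood at 0.422 and 0.845 CPM at E9.5 and 0.869 and 0.593 CPM at E12.5. Dlx6 differed by 8.68 (adjusted p = 6.33e-06), with ectoderm at 13.3 and 15.3 CPM and then 11.4 and 19.5 CPM, below the 25.3 and 27.9 CPM of mesoderm at E12.5. Mmp28, a secreted protease, differed by 8.84 (adjusted p = 1.64e-06): mesoderm went from 1.34 and 1.29 CPM to 15.7 and 14.3 CPM and ectoderm from 12.8 and 10.01 CPM to 0.458 and 0.0660 CPM. BC064078 differed by 8.08 (adjusted p = 0.00103), from no count to 1.57 and 2.68 CPM in mesoderm. Ectoderm stood far higher for BC064078, at 18.15 and 12.07 CPM at E9.5 and 19.49 and 14.64 CPM at E12.5. For Lmx1a, a homeobox factor, and Foxj1, a factor of ciliated cells, the differences of 9.44 and 8.61 (adjusted p = 3.27e-04 and 1.19e-05) came with falls in ectoderm. Lmx1a went from 8.44 and 8.69 CPM to 0 there, and Foxj1 from 32.4 and 24.9 CPM to 0.275 and 0.528 CPM. Mesoderm held at most 1.39 CPM of either.

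In 6 genes the mesoderm change was the lower one, and in each mesoderm stayed at or below 1.29 CPM while ectoderm rose. Snx31 differed by −9.40 (adjusted p = 2.14e-04), with ectoderm going from 0.211 and 0.181 CPM to 12.4 and 9.83 CPM. Fam20a differed by −8.45 and Sh2d4a by −8.39 (adjusted p = 2.89e-04 and 3.36e-04). Cdkn2b, a cell cycle inhibitor, differed by −10.79 (adjusted p = 0.00764), with ectoderm going from 0 to 7.92 and 5.41 CPM, and its call was lost without mesoderm E9.5 replicate 1 (−7.67). AU018091 differed by −8.65 (adjusted p = 0.0297), a call lost when any 1 of 5 libraries was left out. Tmprss2 differed by −8.13 (adjusted p = 0.0132), a call lost without the replicate term and without mesoderm E9.5 replicate 2, where the difference was −2.07. Where a group held no count, these fitted values depend on the prior count of the fit and are no bounds.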

How the results depend on the processing

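Without the replicate block, 4589 genes were called in place of 7987 (2635 higher, 1954 lower), of which 4587 were among the 7987, 1282 differed between layers in place of 3588 (798 higher, 484 lower), and 4 genes were called for bins in place of 113. Against a fold of 2, a stricter test by construction, 2032 were called (1440 higher, 592 lower). With 1 of the compared libraries left out, 6103 to 7007 genes were called (3103 to 3683 higher, 2990 to 3458 lower), 2136 to 3120 differed between layers (1183 to 1659 higher, 953 to 1461 lower), and 25 to 55 genes were called for bins. The layer counts were lowest, at 2136, 1183 and 953, without ectoderm E12.5 replicate 1, and 1041 were lower without ectoderm E9.5 replicate 1. For bins, 27, 55, 25 and 54 genes were called without E12.5 replicate 1, E12.5 replicate 2, E9.5 replicate 1 and E9.5 replicate 2. The cause of these losses was not tested. DESeq2 (7727), RLE scaling (8003), no filter (7667), the mesoderm libraries alone (7756), the 4 libraries alone (7381) and leaving out ectoderm E11.5 replicate 1, an alternative chosen after seeing the data (8297, and 3894 between layers, 2009 higher and 1885 lower), stayed within 1.5 times the main count. The share of calls that were higher was 51.9% in the main fit and 57.3% with no filter, and no named gene that was called changed direction under these settings. Of 224 named results, 213 kept their side of the threshold without the block and 11 did not pass. Counts below the floor limit the folds of the lowest Hox, muscle and macrophage genes.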
